A study of Mus musculus with 9 samples.

Results

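In mouse pancreatic ductal adenocarcinoma (PDAC) cells recovered from lung, 118 of 24012 genes in the deposited table were expressed at a lower level both in cells with a high Gstt1 reporter signal (mCherryHigh) and in early cells of the lung (DTC) than in cells with a low reporter signal (mCherryLow). These 118 genes, called members here, were chosen by their values in these same libraries. The mean of log2(CPM + 1), where CPM is the read count scaled to a common library total, had to be lower by at least 0.7 in mCherryHigh and by at least 0.7 in DTC. All 6 values of mCherryHigh and DTC had to lie below the lowest mCherryLow value, and the mean in mCherryLow had to reach 10 CPM. Symbols of cytosolic ribosomal proteins, olfactory receptors, microRNAs, numbered predicted genes and Rik clones were left out. The differences from mCherryLow are therefore a description of what was chosen, and no test was made on them. The only comparison the rule did not use is DTC with mCherryHigh, although the rule put an upper limit on the level of every member in both of those groups.

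The cells of all 3 groups came from the same mouse model of the disease, whose genotype includes SIRT6F/F, p48-Cre and p53F/+, that is, floxed Sirt6 and p53 alleles and the Cre recombinase driven by p48, a transcription factor gene of the pancreas. They expressed GFP and an mCherry reporter of Gstt1, a glutathione S-transferase that couples glutathione to reactive compounds, and reached the lung after injection into the tail vein. The mCherryLow libraries (1, 5 and 6) and the mCherryHigh libraries (1, 5 and 6) were sorted by GFP and mCherry at 6 weeks, and the DTC libraries (1, 2 and 3) by GFP at 5 days. DTC therefore differs from the other groups in time and in how it was sorted. Nothing in the labels ties the 3 libraries of a group to different mice, and p-values then measure only the spread between these libraries, which may be technical. The age of the mice, and how many mice or tumours a library holds, are not stated in the labels. Gstt1 itself stood at 15.1, 11.9 and 29.4 CPM in mCherryLow 1, 5 and 6, at 60.6, 48.4 and 50.9 CPM in mCherryHigh 1, 5 and 6, and at 6.09, 11.2 and 7.58 CPM in DTC 1, 2 and 3.

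As background, several of the role groups described below are parts of the machinery that makes proteins. Aminoacyl-tRNA synthetases attach each amino acid to its tRNA, and translation factors start, extend and end synthesis on the ribosome. Mitochondria keep their own ribosomes, built from nuclear-encoded proteins, which translate the few mRNAs of the mitochondrial genome into subunits of the respiratory chain. Growing tumour cells depend on these processes. Cancer cells that have newly reached a distant organ can grow slowly or rest for a time before an outgrowth forms. The part of growth in the differences between the groups was not tested.

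The promoters of members could be read for 93 of the 118 genes from RefSeq (GRCm38.p6, 250 bases before to 50 bases after the start site, the first listed where a gene had several, as 17 did). Of 18 motifs searched on both strands, the CCAAT box of the factor NF-Y (letters CCAAT) was in 46 of the 93, or 49.5%. The same letters were in 38.9% of the promoters of other eligible genes (those with an allowed symbol and at least 10 CPM in mCherryLow) and in 37.4% of all RefSeq promoters. The ETS core (CCGGAAGT) was in 17, or 18.3%, beside 9.48% of other eligible genes and 3.89% of all promoters. The second form of the E2F site (TTTGGCGC) was in 4, or 4.30%, beside 1.14% and 0.514%. The first form (TTTCCCGC) was in 2.15% of members and 2.48% of other eligible genes. Some motifs were rarer in members than in other eligible genes. Among these were the AP-1 element (1.08% and 4.82%), the CREB and ATF element (1.08% and 3.49%) and the TATA box (3.23% and 6.53%). The GC box (GGGCGG) was in 69.9% of members and 68.9% of other eligible genes, and the E-box (CACGTG) in 11.8% and 10.8%. These shares are a description with no test, and a match of letters is not a bound site.

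The following stretches show members with at least 3 CCAAT boxes before the start and members with an ETS core, with the matched letters in capitals. Each ends at the start site or at the nearest annotated exon before it.
Zbtb32, chr7:30598910-30599159, minus strand: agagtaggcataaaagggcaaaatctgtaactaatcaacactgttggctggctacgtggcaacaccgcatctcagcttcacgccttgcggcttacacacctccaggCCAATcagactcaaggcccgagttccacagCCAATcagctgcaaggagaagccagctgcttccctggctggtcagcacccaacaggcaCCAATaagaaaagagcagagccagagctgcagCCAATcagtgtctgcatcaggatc
Rcl1, chr19:29101125-29101374, plus strand: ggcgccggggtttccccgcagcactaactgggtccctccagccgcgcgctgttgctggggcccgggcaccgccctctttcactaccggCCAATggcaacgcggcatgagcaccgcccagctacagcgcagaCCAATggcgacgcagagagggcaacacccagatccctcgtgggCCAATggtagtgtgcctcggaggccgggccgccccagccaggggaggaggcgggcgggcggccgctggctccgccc
Mthfd2, chr6:83317607-83317854, minus strand: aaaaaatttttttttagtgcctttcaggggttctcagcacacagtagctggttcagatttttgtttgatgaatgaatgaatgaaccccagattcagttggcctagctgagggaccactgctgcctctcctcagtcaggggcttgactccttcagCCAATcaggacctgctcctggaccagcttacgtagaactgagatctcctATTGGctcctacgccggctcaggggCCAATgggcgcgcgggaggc
Ccm2, chr11:6546637-6546886, plus strand: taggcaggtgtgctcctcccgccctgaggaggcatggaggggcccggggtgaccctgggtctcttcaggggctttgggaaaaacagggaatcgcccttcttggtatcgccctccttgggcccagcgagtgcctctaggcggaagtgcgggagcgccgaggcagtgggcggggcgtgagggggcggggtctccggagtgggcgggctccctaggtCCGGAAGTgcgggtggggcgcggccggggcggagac
Znhit2-ps (Znhit2), chr19:6060957-6061191, plus strand: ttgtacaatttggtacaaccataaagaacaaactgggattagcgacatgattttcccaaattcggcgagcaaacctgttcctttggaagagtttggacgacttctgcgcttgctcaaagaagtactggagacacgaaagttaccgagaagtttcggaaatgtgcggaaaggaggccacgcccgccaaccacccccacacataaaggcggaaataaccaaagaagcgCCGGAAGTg
Ptcd2 and Mrps27, the stretch between both genes, chr13:99344706-99344785, minus strand: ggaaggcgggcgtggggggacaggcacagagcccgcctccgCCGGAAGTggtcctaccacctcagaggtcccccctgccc
Zbtb32 held 4 CCAAT boxes, beginning 144, 114, 56 and 24 bases before the start. Rcl1 held 3, and Mthfd2 held 3, of which the one 47 bases before the start was on the other strand. In all, 6 of the 93 promoters had 3 or more CCAAT boxes in the 250 bases before the start. Copies were not counted for other eligible genes, so this number has no share beside it. The last stretch lies between 2 members that are neighbours and are read in opposite directions, Ptcd2 and Mrps27, whose annotated starts are 81 bases apart. The single ETS core there lies before both genes and is counted for each of them among the 17 members with this motif. Of the 118 members, 19 (16.1%) had a protein-coding gene read the other way from a start within 1000 bases, beside 11.1% of other eligible genes with an annotation. Ptcd2 and Mrps27 were the only such pair in which both genes were members. Zbtb32 lies on chromosome 7, Rcl1 and Znhit2-ps on chromosome 19, Mthfd2 on chromosome 6, Ccm2 on chromosome 11 and the Ptcd2 and Mrps27 pair on chromosome 13.

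Of the 24012 genes, 9110 were eligible by symbol and level, and the members were 1.30% of these. The share of eligible genes whose 6 mCherryHigh and DTC values were all below mCherryLow was 3.29%, or 300 genes. Without the demand for no overlap, 503 eligible genes passed both differences, so 385 were left out for an overlapping value. The rule turned round, with both groups above mCherryLow by the same amounts, gave 216 genes whose means reached 10 CPM in mCherryHigh and in DTC. In the plot of the 2 differences, the members fill the lower left corner, next to eligible genes with similar means and an overlapping library.

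**Figure D1:**
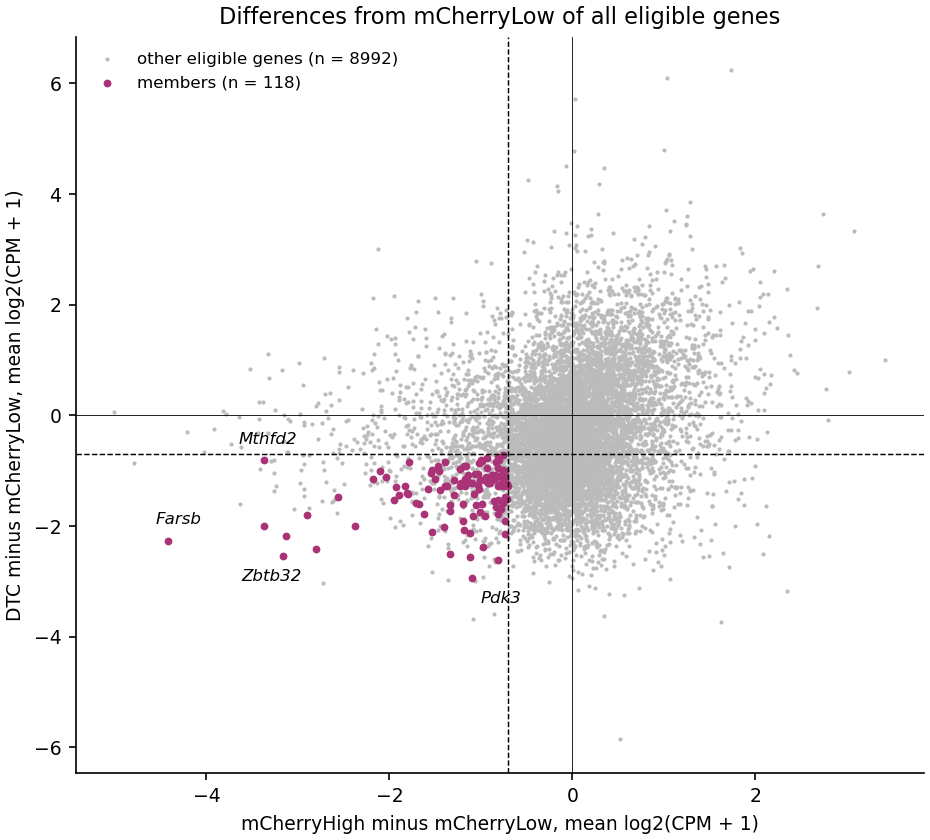
Difference of mCherryHigh from mCherryLow (horizontal) and of DTC from mCherryLow (vertical) in mean log2(CPM + 1), for 9110 eligible genes; dashed lines mark 0.7 lower and members are coloured. Members reach 4.42 lower in mCherryHigh (Farsb, 3.24 lower without mCherryHigh 1, which holds 1 read) and 2.94 lower in DTC (Pdk3, 2.12 lower without DTC 3, which holds 2 reads), and grey points in the same corner are genes with an overlapping library.

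The median member had a mean of 111 CPM in mCherryLow, 47.6 in mCherryHigh and 48.1 in DTC. The median difference was -1.07 for mCherryHigh minus mCherryLow, with all 9110 eligible genes at -0.02. It was -1.26 for DTC minus mCherryLow, with eligible genes at -0.39. At least 2-fold lower levels in both groups, on the log2(CPM + 1) scale, were found for 58 members, and at least 4-fold for 5. In bulk RNA, fewer cells of a type and less RNA per cell cannot be told apart.

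The gap between the lowest mCherryLow value and the highest of the other 6 was narrow for most members, with a median of 0.23 and a range of 0.006 to 1.21 on the log2(CPM + 1) scale. Exact 95% Poisson intervals, which cover counting error only, were apart for that closest pair of libraries in 38 members and overlapped in 80. DTC 2 gave the highest of the 6 values for 50 members and was the highest DTC library for 92. The lowest mCherryLow value was that of mCherryLow 6 for 56 members, of mCherryLow 5 for 35 and of mCherryLow 1 for 27. Against the mCherryLow mean, the median member stood at -1.16, -0.99 and -1.07 in mCherryHigh 1, 5 and 6 and at -1.23, -0.77 and -1.87 in DTC 1, 2 and 3. DTC was thus the more uneven group, with DTC 3 lowest and DTC 2 nearest to mCherryLow, while other eligible genes stood at -0.32, -0.09 and -0.58 in the same 3 libraries.

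**Figure D2:**
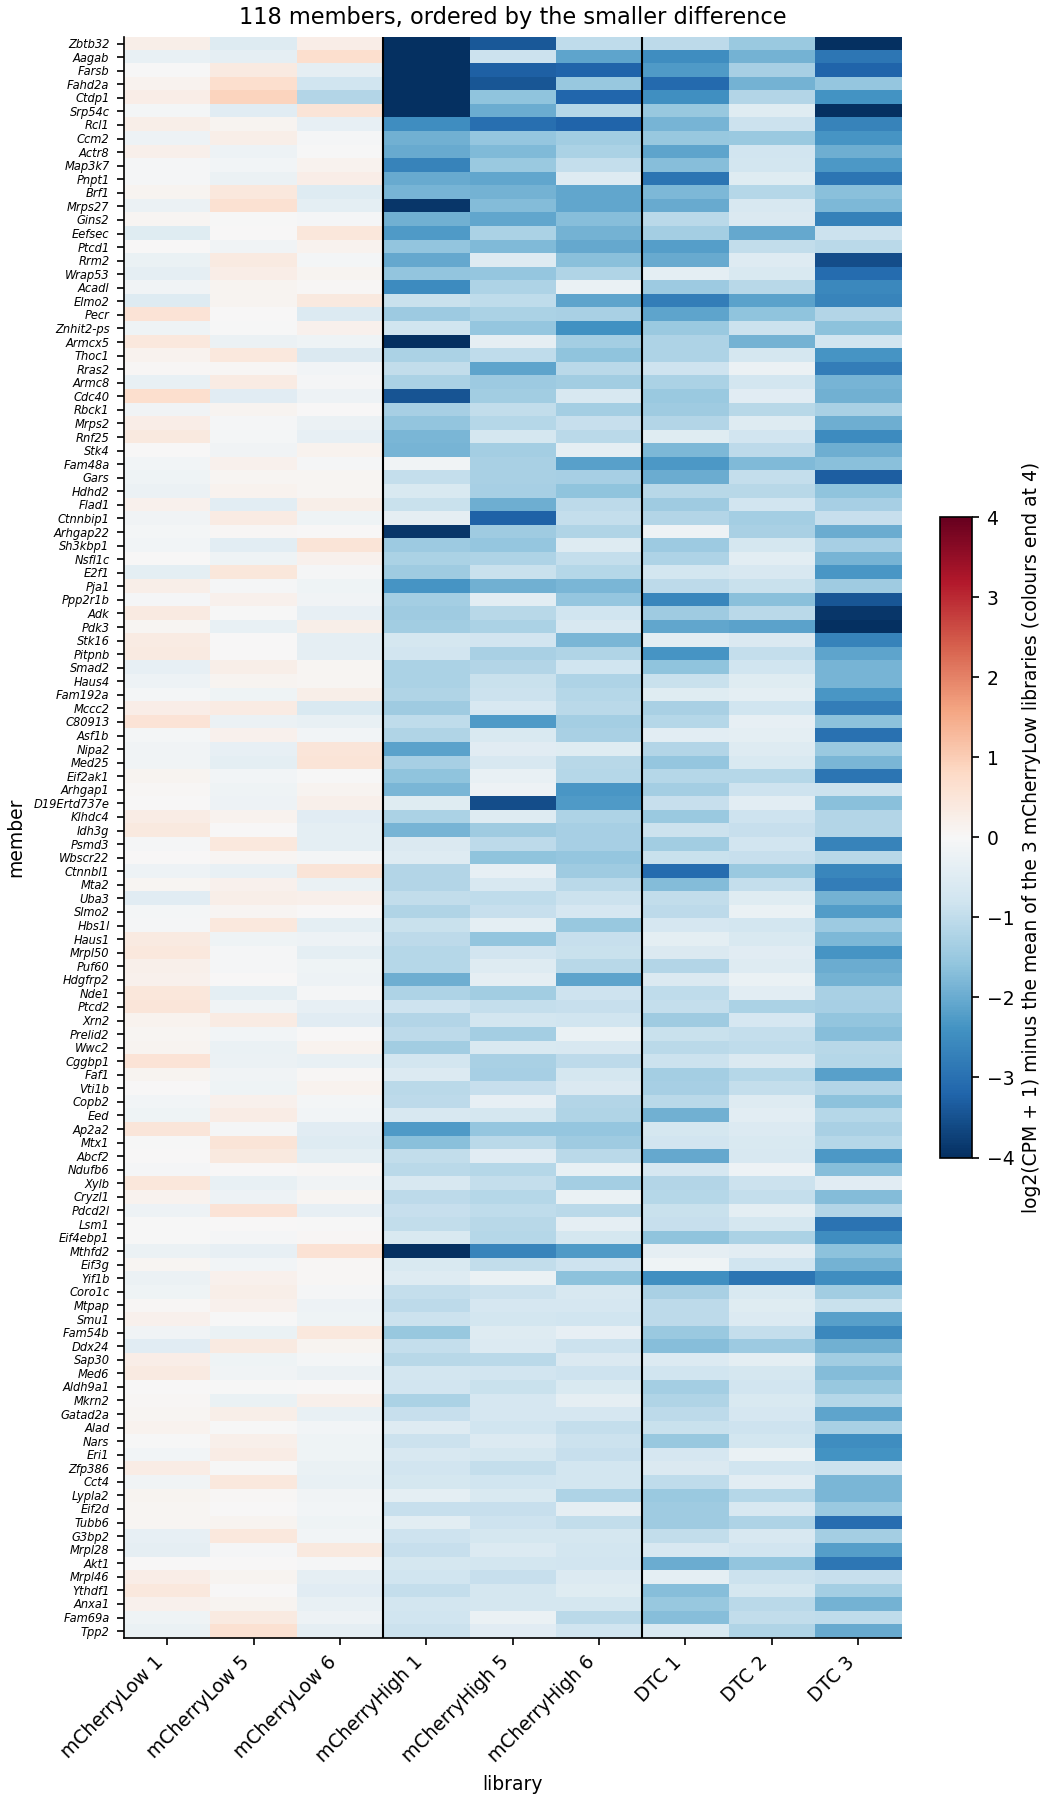
Each row is a member and each column a library; colour is log2(CPM + 1) minus the mean of the 3 mCherryLow libraries, and colours end at 4 in each direction. All 6 mCherryHigh and DTC columns are on the blue side, DTC 3 is the darkest at the median (-1.87) and DTC 2 the palest (-0.77).

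Library totals ran from 643748 reads (mCherryHigh 1) to 11861241 reads (mCherryLow 6), and the DTC libraries held 923988 to 2052623. In mCherryHigh 1, where a single read is 1.55 CPM, 11 members had at most 1 read, and this library was the lowest of mCherryHigh for 60 members. Without it the median of mCherryHigh minus mCherryLow was -0.97, and 104 members were still lower by 0.7. By the code series on the labels, the first mCherryLow and mCherryHigh libraries (series 10) gave a median difference of -1.19. In series 12, mCherryHigh 5 against mCherryLow 5 and mCherryLow 6 gave -0.99. Each of these values rests on 1 mCherryHigh library. mCherryHigh 6 carries series 13, which no mCherryLow library shares, and is in neither value. The DTC libraries carry a series of their own (14), so series and group cannot be told apart there. Gm10800, Gm10801 and Lars2 together took 11.8%, 3.47% and 15.1% of the reads of DTC 1, 2 and 3, and 0.127% to 0.585% in the other 6 libraries. With these 3 genes taken out of the totals, a choice made after seeing the data, 97 genes met the rule, all of them among the 118, and the median of DTC minus mCherryLow was -1.12.

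Markers of other cells were also higher in DTC. The 24 macrophage and monocyte markers summed to 571 to 2731 CPM in mCherryLow, 846 to 1855 in mCherryHigh and 4305 to 9660 in DTC, and 22 of the 24 had a higher mean in DTC than in mCherryLow. Most of the upper sum in mCherryLow and in mCherryHigh was Ear2, at 1786 CPM in mCherryLow 1 and 1274 in mCherryHigh 1 (series 10). Ear2 was at 0 in libraries 5 and 6 of both groups. The pan-leukocyte marker Tyrobp had the same pattern, at 1873 and 1156 CPM against 0. The cause of this difference between libraries was not tested. The 13 T and NK cell markers summed to 10.7 to 29.3, 18.5 to 28 and 116 to 528 CPM, all 13 with a higher mean in DTC, and Cd3e was at 0 in every mCherryLow library. The 15 endothelial markers summed to 157 to 216, 225 to 263 and 409 to 744 CPM. The 15 tumour epithelial markers were present in all groups, at 4227 to 4842, 4179 to 9031 and 1485 to 8355 CPM. None of the members is in any of the 11 cell type lists, but few of these markers were eligible. Eligible were 8 of the 24 macrophage and monocyte, 1 of the 13 T and NK cell, 2 of the 15 endothelial and 11 of the 15 tumour epithelial markers. A marker higher in DTC than in mCherryLow could not meet the rule. The absence of members there therefore says nothing about other cells. The part of depth, of the 3 abundant genes and of other cells in the differences from mCherryLow was not tested.

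The 12 members with the largest smaller difference, that is, the lesser of the differences of mCherryHigh and of DTC from mCherryLow, are named first, and none of these values was tested. Zbtb32, which encodes a zinc finger transcriptional repressor, had 39.0, 22.7 and 40.0 CPM in mCherryLow 1, 5 and 6, 0, 2.24 and 15.9 CPM in mCherryHigh 1, 5 and 6 and 15.2, 11.2 and 0 CPM in DTC 1, 2 and 3. Its mean was 8.92 times lower in mCherryHigh and 5.81 times lower in DTC on the log2(CPM + 1) scale. A count of 0 in mCherryHigh 1 allows up to 4.66 CPM (3 reads), and in DTC 3 up to 3.25 CPM. Without mCherryHigh 1 the first value was 4.58 times and without mCherryHigh 6 it was 18.8 times, and the second was 2.41 times without DTC 3 and 9.70 times without DTC 1. Leaving out 1 library, an alternative chosen after seeing the data, moved the mCherryHigh value by over 1.5 times in 6 of these 12 members (14 of all 118) and the DTC value in 3 of the 12 (18 of all 118).

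Aagab, whose product binds the adaptor subunits of clathrin coats, had 89.2, 84.9 and 175 CPM in mCherryLow, 1.55, 60.0 and 24.8 in mCherryHigh and 19.0, 29.2 and 14.1 in DTC. Fahd2a, of the fumarylacetoacetate hydrolase family, had 22.9, 33.7 and 11.4 CPM in mCherryLow, 0, 1.02 and 6.65 in mCherryHigh and 1.52, 4.87 and 6.49 in DTC. Ctdp1, the phosphatase that resets the tail of RNA polymerase II, had 120, 189 and 44.4 CPM in mCherryLow, 1.55, 31.9 and 10.3 in mCherryHigh and 17.5, 43.8 and 18.4 in DTC. The mCherryLow values of these genes were spread widely, and for Ctdp1 the lowest of them lay only 0.02 above DTC 2 on the log2(CPM + 1) scale.

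Rcl1, which acts in the cleavage of ribosomal RNA precursors, had 128, 118 and 87.6 CPM in mCherryLow, 18.6, 12.8 and 11 in mCherryHigh and 29.7, 60.4 and 16.2 in DTC. It was the only member among the 137 eligible genes of the ribosome biogenesis list. That list does not count Wbscr22, a member described below that methylates ribosomal RNA. Ccm2, a scaffold protein of the cerebral cavernous malformation complex, had 174, 235 and 193 CPM in mCherryLow, 51.3, 67.5 and 74.4 in mCherryHigh and 68.5, 71.1 and 37.9 in DTC. Its gap of 1.21 between the groups was the widest of all members. Map3k7, the kinase TAK1 of TGF-beta and NF-kappaB signalling, had 121, 117 and 138 CPM in mCherryLow, 18.6, 44.0 and 63.4 in mCherryHigh and 37.3, 75 and 24.9 in DTC. Ccm2 and Map3k7 had mCherryLow values close together (SD 31.3 and 11.5 CPM, n = 3), and the other 6 libraries of each gene lay at or below 75 CPM.

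Srp54c had 14.1, 10.6 and 21.6 CPM in mCherryLow, 0, 2.96 and 6.14 in mCherryHigh and 4.57, 10.2 and 0 in DTC. Only 24.8% of the 50-base windows of its longest transcript are unique among annotated transcripts, so its counts cannot be kept apart from its near copies and are uncertain. The other members of the 12 (Farsb, Actr8, Pnpt1 and Brf1) are given with their role groups.

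**Figure D3:**
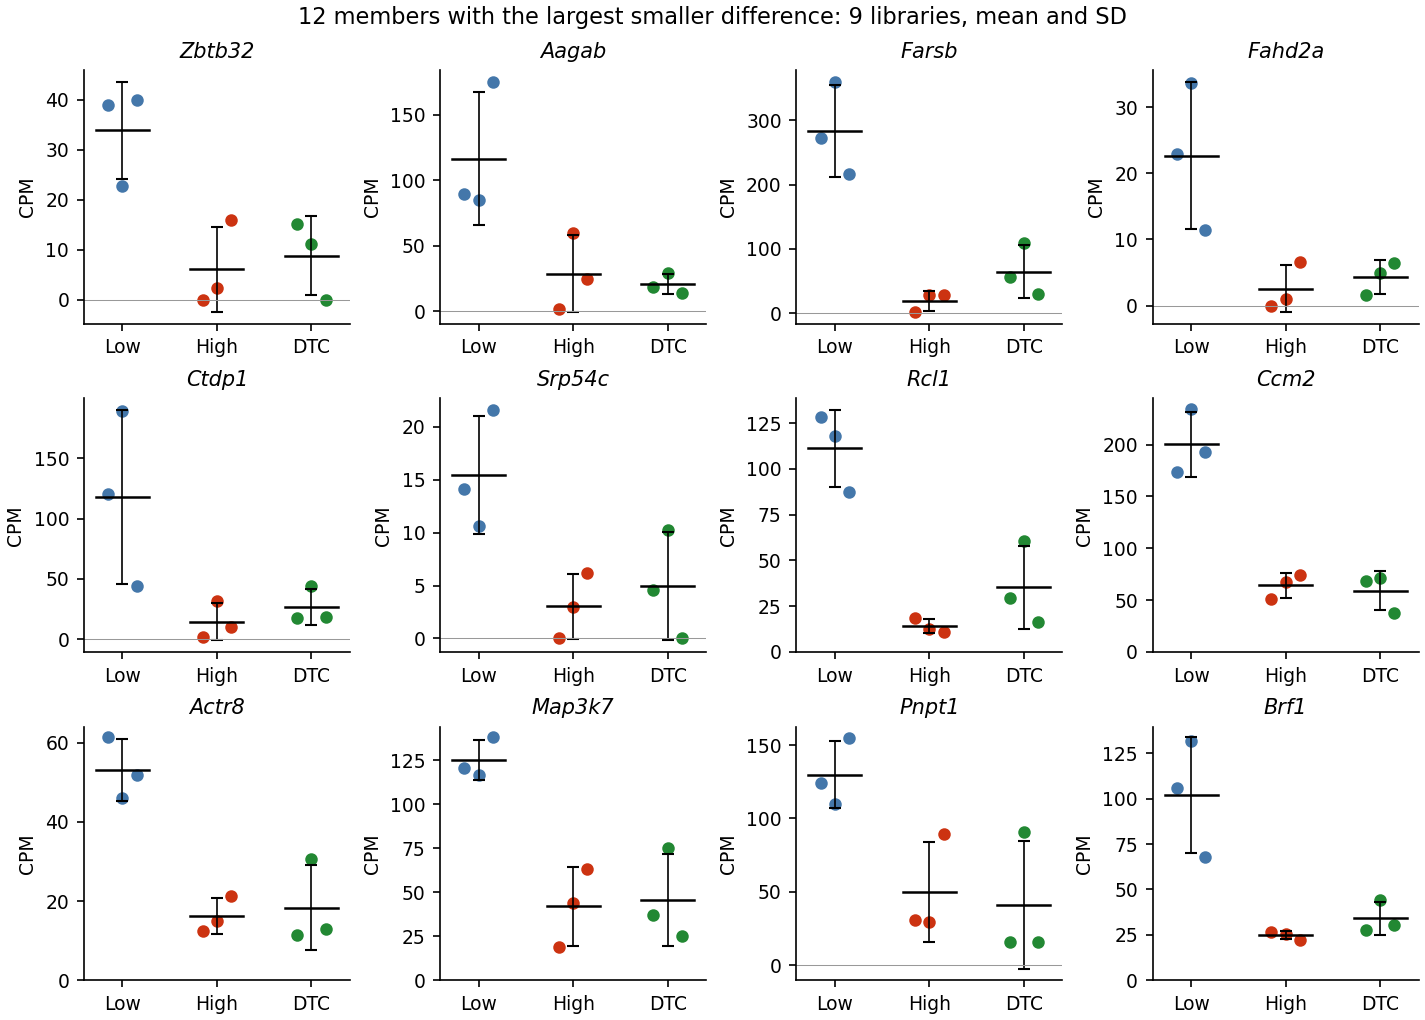
CPM of the 12 members with the largest smaller difference in each of the 9 libraries (points), with the mean (bar) and SD (error bar) of the 3 libraries of mCherryLow, mCherryHigh and DTC. Every mCherryLow point lies above every other point of its panel, narrowly for Ctdp1 (44.4 against 43.8 CPM) and widely for Ccm2 (174 against 74.4 CPM).

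Of 50 function lists, which were drawn up with earlier results of these data known, 7 held at least 3 members, 23 held 1 or 2 and 20 held none. In all, 56 members were in at least 1 list and 62 in none. The members' share of each list's eligible genes is given beside the 1.30% of all eligible genes, and no list was tested as a set. Limma's calls against mCherryLow for single genes of a list are given as background counts only. The same contrasts chose the members, which the lists include, so these counts lend no support to a list. Among lists of protein synthesis, 4 held at least 3 members. Ribosome biogenesis held 1 of 137 eligible genes and tRNA processing and modification 0 of 74. Few members did not mean unchanged levels. Of the ribosome biogenesis genes, 89.1% had a lower mean in mCherryHigh and 67.2% in DTC, with medians of -0.43 and -0.36. For tRNA processing and modification the shares were 79.7% and 62.2%, with medians of -0.26 and -0.17. All eligible genes stood at 52.6% and 64.4%, with medians of -0.02 and -0.39.

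The largest share was in the aminoacyl-tRNA synthetases and their partners, with 3 of 41 eligible genes (7.32%). Farsb, the beta subunit of the phenylalanine enzyme, had 273, 360 and 217 CPM in mCherryLow, 1.55, 28 and 28.9 in mCherryHigh and 56.3, 109 and 29.2 in DTC. This was the largest difference among members in mCherryHigh (21.3 times lower), but mCherryHigh 1 rests on 1 read, and without it Farsb was 9.45 times lower (32.4 times without mCherryHigh 6). Gars, the glycine enzyme, had 362, 430 and 428 CPM in mCherryLow, 208, 166 and 162 in mCherryHigh and 103, 209 and 40.0 in DTC. Nars, the asparagine enzyme, had 521, 597 and 458 CPM in mCherryLow, 287, 356 and 290 in mCherryHigh and 180, 314 and 92.0 in DTC. Gars and Nars were lowest in DTC 3 and Farsb in mCherryHigh 1. Across the 41 genes of the list, 33 had lower means in both groups, beside 3530 of all 9110 eligible genes. The list's median was -0.45 in mCherryHigh and -0.93 in DTC, beside -0.02 and -0.39 for all eligible genes. By limma with Benjamini-Hochberg adjustment, none of the 41 passed in mCherryHigh minus mCherryLow, and 12 (29.3%) passed as lower and 2 (4.88%) as higher in DTC minus mCherryLow, beside 8.87% lower and 34.2% higher of all 18701 genes tested there.

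Mitochondrial ribosomal proteins gave 5 of 75 eligible genes (6.67%). Mrps27, of the small subunit, had 31.2, 56.9 and 27.6 CPM in mCherryLow, 1.55, 10.4 and 7.87 in mCherryHigh and 8.37, 23.4 and 9.74 in DTC. Mrps2, also of the small subunit, had 64.4, 52.0 and 44.9 CPM in mCherryLow, 17.1, 23.7 and 27.5 in mCherryHigh and 22.8, 36.5 and 13 in DTC. Both genes had DTC 2 nearest to mCherryLow. Mrpl50, of the large subunit, had 101, 74.3 and 58.2 CPM in mCherryLow, 34.2, 44.6 and 40.8 in mCherryHigh and 50.2, 55.5 and 14.1 in DTC. Mrpl28 had 141, 174 and 234 CPM in mCherryLow, 94.8, 122 and 106 in mCherryHigh and 116, 104 and 37.9 in DTC. In these large subunit genes the groups were separated narrowly, by 0.07 and 0.21 on the log2(CPM + 1) scale. The fifth member was Mrpl46, at -0.76 in mCherryHigh and -0.72 in DTC. Over the list, 71 of 75 (94.7%) had a lower mean in mCherryHigh, 59 (78.7%) in DTC and 56 in both. Of all eligible genes, 52.6% were lower in mCherryHigh and 64.4% in DTC. Such shares were not particular to this list. They were 93.1% and 79.2% for oxidative phosphorylation subunits and 92.2% and 82.4% for the proteasome, lists with 1 member each. The medians of the mitochondrial ribosomal proteins were -0.33 and -0.49, beside -0.02 and -0.39 for all eligible genes. Of the 78 genes tested in DTC minus mCherryLow, limma called 4 (5.13%) lower and 1 (1.28%) higher, both below the shares of all genes tested (8.87% and 34.2%), and of the 77 tested in mCherryHigh minus mCherryLow it called none.

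Other genes of mitochondrial gene expression gave 4 of 56 (7.14%). Pnpt1, the polynucleotide phosphorylase of mitochondrial RNA, had 124, 110 and 155 CPM in mCherryLow, 31.1, 29.5 and 89.6 in mCherryHigh and 16, 91.1 and 16.2 in DTC. mCherryHigh 6 and DTC 2 stood well above the other libraries of their groups. Ptcd1 and Ptcd2 are pentatricopeptide repeat proteins that bind mitochondrial RNA. Ptcd1 had 49.2, 44.0 and 53.4 CPM in mCherryLow, 15.5, 13.6 and 10.9 in mCherryHigh and 9.89, 24.4 and 22.7 in DTC. Ptcd2, the divergent neighbour of Mrps27 shown above, had 74.1, 47.4 and 41.5 CPM in mCherryLow, 29.5, 26.6 and 27.1 in mCherryHigh and 26.6, 21.4 and 20.6 in DTC. All 6 lower libraries of Ptcd2 lay within 20.6 to 29.5 CPM. Mtpap, the mitochondrial poly(A) polymerase, had 60.9, 66.2 and 50.6 CPM in mCherryLow, 28, 36.6 and 36.4 in mCherryHigh and 28.2, 41.4 and 31.4 in DTC. Over the 56 genes, 28 had lower means in both groups, with medians of -0.17 and -0.33, beside -0.02 and -0.39 for all eligible genes. In DTC 62.5% of the list were lower, beside 64.4% of all eligible genes, so the list as a whole was not lower there than other genes. Limma called 7 lower (10.9%) and 6 higher (9.38%) of 64 tested in DTC minus mCherryLow, beside 8.87% and 34.2% of all genes, and none in mCherryHigh minus mCherryLow. The share called lower is thus near that of all genes.

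Translation factors gave 4 of 69 (5.80%). Eif2ak1, the kinase HRI that phosphorylates eIF2 and so slows initiation, had 115, 98.0 and 106 CPM in mCherryLow, 34.2, 86.0 and 47.9 in mCherryHigh and 47.2, 47.3 and 13 in DTC. Eif4ebp1, which holds the cap-binding factor eIF4E until mTOR phosphorylates it, had 180, 176 and 189 CPM in mCherryLow, 118, 82.5 and 111 in mCherryHigh and 59.4, 75 and 31.4 in DTC. These members restrain initiation, so the name of the list does not describe their role. Eif3g, a subunit of the initiation factor eIF3, had 261, 230 and 257 CPM in mCherryLow, 162, 126 and 140 in mCherryHigh and 221, 142 and 66.0 in DTC. DTC 1 lay just under the lowest mCherryLow library for Eif3g. Eif2d, which can bring initiator tRNA to the ribosome, had 105, 100 and 91.6 CPM in mCherryLow, 51.3, 51.6 and 76.5 in mCherryHigh and 36.5, 63.3 and 34.6 in DTC. Over the list, 38 of 69 had lower means in both groups, with medians of -0.13 and -0.35, beside -0.02 and -0.39 for all eligible genes. In DTC 62.3% of the list were lower, beside 64.4% of all eligible genes, so this list too was not lower there as a whole. Limma called 7 lower (8.86%) and 14 higher (17.7%) of 79 tested in DTC minus mCherryLow, where 8.87% and 34.2% of all genes were called, and 0 of 75 in mCherryHigh minus mCherryLow.

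**Figure D4:**
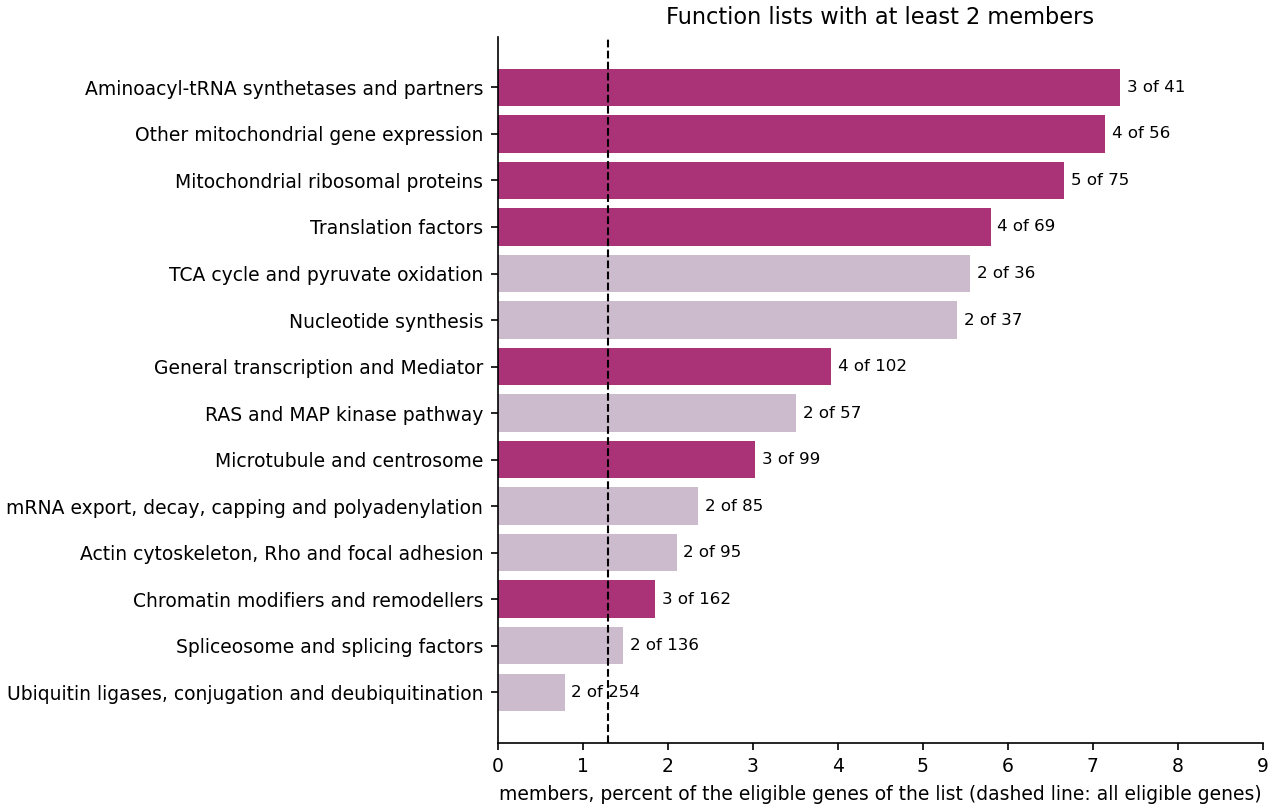
Members as a percentage of the eligible genes of each function list with at least 2 members; bar labels give members of eligible genes, dark bars hold at least 3 members and the dashed line is the 1.30% of all eligible genes. The 4 longest bars run from 5.80% (translation factors) to 7.32% (aminoacyl-tRNA synthetases), and ubiquitin ligases, the largest list shown, lie below the line at 2 of 254.

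General transcription and Mediator genes gave 4 of 102 (3.92%). Brf1, which recruits RNA polymerase III to tRNA genes, had 106, 132 and 68.0 CPM in mCherryLow, 26.4, 25.6 and 22.4 in mCherryHigh and 27.4, 44.3 and 30.3 in DTC. The mCherryHigh libraries of Brf1 lay close together, at 24.8 ± 2.12 CPM (SD, n = 3). Fam48a, now named Supt20, a subunit of the SAGA coactivator, had 168, 206 and 175 CPM in mCherryLow, 166, 74.0 and 40.0 in mCherryHigh and 36.5, 52.6 and 56.3 in DTC. Its mCherryHigh 1 value was close to mCherryLow. Med25 and Med6, subunits of Mediator, were lower by 1.02 and 0.77 in mCherryHigh and by 1.32 and 1.08 in DTC on the log2(CPM + 1) scale. Med6 had 18.6, 18.0 and 17.4 CPM in mCherryHigh 1, 5 and 6.

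Chromatin modifiers gave 3 of 162 (1.85%), near the 1.30% of all eligible genes. Actr8, of the INO80 remodelling complex, had 61.4, 46.0 and 51.8 CPM in mCherryLow, 12.4, 14.9 and 21.4 in mCherryHigh and 11.4, 30.7 and 13 in DTC. Mta2, of the NuRD deacetylase complex, had 350, 376 and 279 CPM in mCherryLow, 148, 213 and 157 in mCherryHigh and 98.2, 172 and 47.6 in DTC. Eed, of the Polycomb complex PRC2, had 112, 156 and 117 CPM in mCherryLow, 80.8, 78.2 and 54.7 in mCherryHigh and 32.7, 94.5 and 57.4 in DTC. The list as a whole had a median of 0.13 in mCherryHigh and -0.09 in DTC, so these 3 genes did not follow its median.

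Microtubule and centrosome genes gave 3 of 99 (3.03%). Haus4 and Haus1 are both subunits of augmin, which seeds branched microtubules in the spindle. Haus4 had 54.1, 66.5 and 65.6 CPM in mCherryLow, 24.9, 33.0 and 25.6 in mCherryHigh and 32.7, 44.3 and 16.2 in DTC. Haus1 had 46.8, 31.6 and 31.4 CPM in mCherryLow, 17.1, 11.3 and 18.4 in mCherryHigh and 27.4, 23.4 and 9.74 in DTC. Tubb6, a beta-tubulin, had 608, 627 and 509 CPM in mCherryLow, 437, 326 and 292 in mCherryHigh and 215, 244 and 69.3 in DTC.

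Among the 23 lists with 1 or 2 members, DNA replication held Gins2 of the GINS helicase complex (1 of 60), replication-coupled chromatin the histone chaperone Asf1b (1 of 22), and nucleotide synthesis Rrm2 of ribonucleotide reductase and the adenosine kinase Adk (2 of 37). The lists of mitosis (0 of 68) and of DNA repair (0 of 83) held no member. The augmin subunits Haus4 and Haus1, which act in the spindle, are counted under microtubules and not under mitosis. Gins2 had 58.0, 54.7 and 52.9 CPM in mCherryLow, 14, 12.4 and 16.3 in mCherryHigh and 25.9, 37.0 and 7.58 in DTC. However, 67.3% of its exon bases overlap Gse1 on the other strand, and strand use in the counting is not given in the sources used here, so reads of both genes cannot be told apart. Rrm2 had 302, 464 and 345 CPM in mCherryLow, 87.0, 257 and 114 in mCherryHigh and 89.8, 255 and 30.3 in DTC. E2f1, the cell cycle transcription factor, was lower by 1.15 in mCherryHigh and by 1.22 in DTC on the log2(CPM + 1) scale. These genes were singled out after their values were seen.

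Members of energy metabolism were Pdk3, a kinase that inhibits pyruvate dehydrogenase, and Idh3g, a regulatory subunit of isocitrate dehydrogenase (2 of 36 TCA cycle genes), the respiratory complex I subunit Ndufb6 (1 of 72) and the fatty acid dehydrogenase Acadl (1 of 43). Pdk3 had 78.0, 59.8 and 88.6 CPM in mCherryLow, 28, 30.4 and 47.2 in mCherryHigh and 16.7, 16.1 and 2.16 in DTC, the largest difference of a member in DTC (7.66 times lower). DTC 3 rests on 2 reads, and without it Pdk3 was 4.34 times lower and Yif1b, at 6.40 times, had the largest difference. Acadl had 308, 367 and 351 CPM in mCherryLow, 59.0, 144 and 283 in mCherryHigh and 123, 156 and 56.3 in DTC. The mCherryHigh libraries of Acadl were far apart. None of the 29 eligible glycolysis genes was a member.

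Of the 62 members in no list, several share a known complex or task, a grouping made after their values were seen. Gatad2a is a NuRD subunit like Mta2, and Sap30 belongs to the Sin3 deacetylase complex. Ap2a2 is a subunit of the endocytic adaptor AP-2, to which Aagab and Sh3kbp1 are linked as binding or scaffold proteins. Nsfl1c and Faf1 are cofactors of the segregase p97. Stk4 and Wwc2 belong to Hippo signalling. Hbs1l rescues stalled ribosomes, Eefsec is the elongation factor for selenocysteine and Wbscr22 (now Bud23) methylates ribosomal RNA. Anxa1, a calcium-dependent phospholipid-binding protein, was the most abundant member, at 1852, 1782 and 1346 CPM in mCherryLow, 977, 1014 and 1013 in mCherryHigh and 570, 771 and 442 in DTC. Its mCherryHigh libraries lay close together and above all 3 DTC libraries.

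Near the threshold, Tpp2, Fam69a and Anxa1 were just inside, with a smaller difference of 0.7002, 0.7111 and 0.7149. Dcun1d2, Psmd7 and Zcchc6 met every other part of the rule and were just outside, at 0.6980, 0.6970 and 0.6959. These 6 values differ by less than the SD of each gene between libraries.

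All 118 members are annotated as protein coding in GENCODE vM21. Their longest transcripts had a median of 2758 bases, beside 3554 for other eligible genes, while coding lengths were closer, at 1390.5 and 1449 bases. The promoters had a median GC content of 61.0%, against 61.7% for other eligible genes and 52.7% for all promoters. Of the members, 28 had under 90% unique 50-base windows and 5 under 50%, namely Srp54c, Gins2, Mkrn2, Arhgap22 and Thoc1. For 9 members, over 25% of the exon bases are shared with another gene, among them Yif1b with 2200002D01Rik (26.5%). Counts of these genes are uncertain.

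Whether the members differed between early cells and reporter-high cells was tested with limma on log2(CPM + 1) over all 19700 genes that reached 1 CPM in 3 or more of the 6 libraries, with Benjamini-Hochberg adjustment. All 118 members were tested, and 1 rose and 2 fell in DTC relative to mCherryHigh (adjusted p under 0.05). Over all genes tested, 23.0% rose and 7.19% fell. The rule had capped the members' level in both groups. The median member differed by -0.16, where the median of all genes tested was 0.55 and that of eligible genes -0.29. A difference below 0 was seen for 75 members and above 0 for 43. Unadjusted p-values under 0.05 were found for 13 members. On the recovered whole reads edgeR called 0 members higher and 7 lower, beside 15.9% and 10.8% of all genes tested. DESeq2 called 1 higher and 10 lower, beside 21.3% and 10.7% of all genes. Leaving out DTC 3 turned the median to 0.10, and without DTC 1 no member was called. With Gm10800, Gm10801 and Lars2 taken out of the totals, a choice made after seeing the data, the median member differed by -0.01.

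Mthfd2, the mitochondrial enzyme of folate one-carbon metabolism, had 1.55, 14.1 and 18.9 CPM in mCherryHigh 1, 5 and 6 and 72.3, 70.2 and 29.2 CPM in DTC 1, 2 and 3, beside 79.0, 74.6 and 140 CPM in mCherryLow. It was higher in DTC by 2.56 ± 0.76 (SE) on the log2(CPM + 1) scale, or 5.90 times (limma, adjusted p = 0.0272). The groups did not overlap. mCherryHigh 1 rests on 1 read, and without it the difference was 1.64 (limma, adjusted p = 0.0342). DESeq2 also called it (adjusted p = 0.0221). The call was lost with edgeR (adjusted p = 0.0838), with quantile normalization (limma, adjusted p = 0.0930) and when DTC 1 or DTC 2 was left out (limma, adjusted p = 0.105 and 0.0783).

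Akt1, the kinase that relays growth factor signals to mTOR, had 702, 695 and 673 CPM in mCherryLow, 423, 417 and 401 in mCherryHigh and 175, 231 and 92.0 in DTC. The 3 groups stood at 3 levels without overlap, and DTC was lower than mCherryHigh by a difference of -1.41 ± 0.38 (SE, limma, adjusted p = 0.0193). Its means were 690 ± 15.1, 414 ± 11.1 and 166 ± 70.1 CPM (SD, n = 3 each). edgeR and DESeq2 also called it lower (adjusted p = 0.0148 and 0.00179). The call was lost with quantile normalization (limma, adjusted p = 0.0804) and when mCherryHigh 5 or DTC 1 was left out (limma, adjusted p = 0.0534 and 0.0582).

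Yif1b, of transport between endoplasmic reticulum and Golgi, had 70.7, 94.9 and 86.2 CPM in mCherryLow, 57.5, 69.9 and 26.0 in mCherryHigh and 14.5, 10.2 and 14.1 in DTC. It was lower in DTC by a difference of -1.81 ± 0.52 (SE, limma, adjusted p = 0.0235). edgeR and DESeq2 also called it (adjusted p = 0.0118 and 0.00206). The call was lost without mCherryHigh 5, DTC 1 or DTC 2 (limma, adjusted p = 0.110, 0.0649 and 0.0567), and 26.5% of its exon bases overlap a gene on the other strand.

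The next members by p did not pass. Above mCherryHigh in DTC were Farsb at 2.14 ± 0.88 (SE, limma, adjusted p = 0.0871), Ap2a2 at 0.95 ± 0.40 (0.0918) and Pja1, a ubiquitin ligase, at 0.92 ± 0.42 (0.121). Farsb stood at 0.97 without mCherryHigh 1, which holds 1 read, and was called without mCherryHigh 6 (2.74, limma, adjusted p = 0.0461). Below mCherryHigh in DTC were Ppp2r1b, a scaffold subunit of the phosphatase PP2A, at -1.45 ± 0.52 (SE, limma, adjusted p = 0.0560) and Elmo2, which activates Rac with DOCK proteins, at -1.17 ± 0.43 (0.0616). Ppp2r1b had 69.9, 136 and 61.6 CPM in mCherryHigh and 28.9, 57.0 and 16.2 CPM in DTC. Elmo2 had 148, 135 and 62.3 CPM in mCherryHigh and 39.6, 61.4 and 43.3 CPM in DTC. edgeR called both lower (adjusted p = 0.0334 and 0.0205), and neither gene had overlapping groups.

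**Figure D5:**
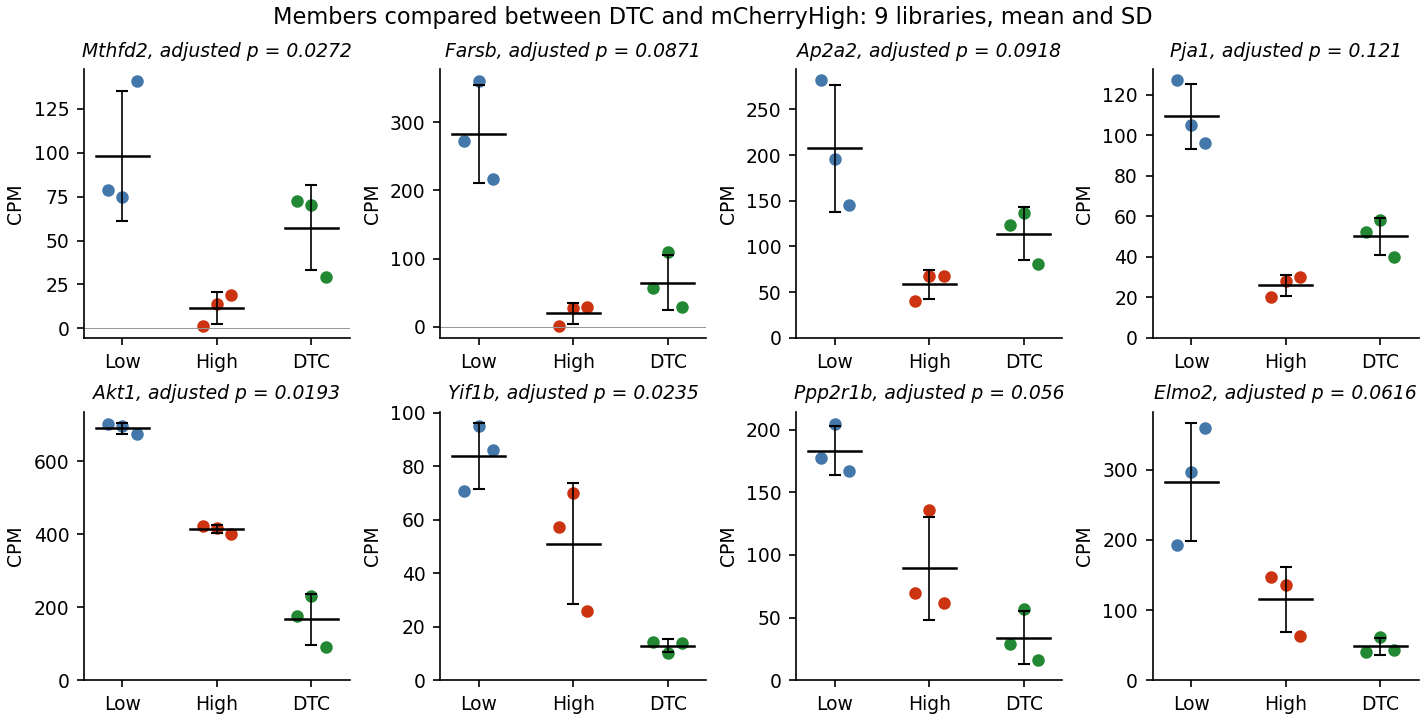
CPM in the 9 libraries (points), with mean and SD of each group of 3, for the members named in DTC against mCherryHigh, with limma's adjusted p in each title. Mthfd2 is higher in DTC than in mCherryHigh, Akt1 and Yif1b are lower, and the 5 others did not pass 0.05.

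For the contrasts that chose the members, the counts are given as background only. Limma called 0% of 15437 genes lower in mCherryHigh than in mCherryLow, where 509 genes were lower at an unadjusted p under 0.05, and edgeR also called 0. DESeq2 called 99 (0.641%), of which 26 were members. In DTC against mCherryLow, limma called 8.87% of 18701 genes lower, 78 members among them, and edgeR and DESeq2, which called 16.6% and 15.7% of all genes lower, each called 109 members. The rule used these contrasts, so nothing is read from the members' counts.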

How the data were processed

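RNA of 3 groups of 3 libraries was made into full-length cDNA with a SMART-seq kit and sequenced from Nextera XT libraries, per the labels' protocols. Reads were mapped to mm9, per the submitters' processing notes, while for the aligner, the counter and the use of strand the sources used here give nothing. Values are CPM, as labelled in the table the authors deposited. Each column's values were whole multiples of 1 read within 0.01 read (100% of values, largest deviation 3.14e-05 read), so counts were recovered from the CPM that the authors deposited, for totals, edgeR 4.0.16 and DESeq2 1.42.0. Values were compared as log2(CPM + 1).

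Group contrasts were tested two-sided with limma 3.58.1 in R 4.3.3, with a mean-variance trend, for genes that reached 1 CPM in 3 or more of 6 libraries, and Benjamini-Hochberg adjustment at 0.05. The rule's members, the gene lists and the settings were chosen with earlier results of these data known. Named are the 12 members with the largest smaller difference, up to 4 members of each list with at least 3, the 3 genes on either side of the threshold, and in DTC minus mCherryHigh up to 6 members called in each direction or, where fewer than 4 were called, the 4 with the smallest p. Other named members were chosen after their values were seen. Alternatives were other pseudocounts, filters, thresholds and scalings, thinning, one fit of all libraries and leaving out each library. Transcript features come from GENCODE vM21 and promoters from RefSeq, both of a later build than mm9, so the only coordinates given are those of the printed promoters. The procedure was tested on simulated data. One allele that all groups share, and 1 overlap between genes, are not reported here.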

Additional observations from a re-analysis of the deposited data

Results flagged for a closer look

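For 3 members the difference from mCherryLow was not the same in DTC and in mCherryHigh, as tested by the contrast of DTC with mCherryHigh (limma, Benjamini-Hochberg adjustment over all genes). Akt1 differed by -1.41 (adjusted p = 0.0193), with 3 of 3 DTC libraries below all mCherryHigh libraries. Yif1b differed by -1.81 (adjusted p = 0.0235), also with 3 of 3 DTC libraries below, and its exons overlap a gene on the other strand. Mthfd2 differed by 2.56 (adjusted p = 0.0272), with 3 of 3 DTC libraries above, and by 1.64 without mCherryHigh 1, which holds 1 read. Each of these calls was lost when at least 1 of the 6 libraries was left out.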

How the results depend on the processing

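The number of genes meeting the rule was 118 and became 231 with median-of-ratios scaling (all 118 among them), 58 and 178 with a difference of at least 1.0 and 0.5, and 503 with overlap allowed. Leaving out 1 library gave 102 (without DTC 3) to 359 (without mCherryLow 6). It also gave 259 without mCherryLow 5 and 210 without mCherryHigh 5. Of the 118, 58 were kept in all 9 such settings, 78 in all 5 settings of scale or pseudocount, 49 in both, and 84 when every library was thinned to 643748 reads. The median of mCherryHigh minus mCherryLow was -1.18 with median-of-ratios scaling and -1.12 to -0.97 leaving out 1 library. That of DTC minus mCherryLow ran from -1.54 to -1.04. That of DTC minus mCherryHigh turned from -0.16 to 0.10 without DTC 3, and was -0.38 without DTC 2 and -0.39 with quantile normalization. It was -0.01 with Gm10800, Gm10801 and Lars2 taken out of the totals. The cause of these shifts was not tested.

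The 3 members called in DTC minus mCherryHigh became 1 with quantile normalization, 6 with median-of-ratios scaling, 10 in one fit of all 9 libraries, 7 with edgeR, 11 with DESeq2 and 0 (without DTC 1) to 9 (without DTC 2) leaving out 1 library, with 1 without mCherryHigh 5 and 5 without mCherryHigh 6. Where a group kept 2 libraries, their spread was pooled with the other group. Over all genes, 5949 called became 2975 with quantile normalization and 2538 (without DTC 1) to 6997 leaving out 1 library. Genes called lower in DTC than in mCherryLow numbered 1659, became 3098 with edgeR and 2945 with DESeq2, and ran from 691 (without DTC 1) to 1860. For mCherryHigh against mCherryLow, 0 were called and DESeq2 called 99. With the label number as a replicate block, limma also called 0. Deviations of same-numbered libraries from their group means correlated at r of -0.204, -0.0234 and 0.270 for numbers 1, 5 and 6. With 3 libraries per group, these values cannot decide whether the numbers pair the libraries. Depth limits the members with few reads in mCherryHigh 1, where 0 reads allow 4.66 CPM.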
